A study of Homo sapiens with 6 samples.

Results

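The mitochondrial ribosomal protein genes were taken as every listed gene whose symbol is MRPL or MRPS followed by a number and at most 1 letter. There were 78 such genes among the 12227 listed, 49 with an MRPL symbol and 29 with an MRPS symbol. All 78 were tested, and no filter on low values was applied to them beyond the authors' own listing of genes. Transcripts were sequenced from PC3, an established line of human prostate cancer cells. The VprBP sh group (3 libraries) is labelled as a VprBP knockdown by short hairpin RNA, and the Control sh group (3 libraries) as wild type with a control hairpin. VprBP is the protein encoded by DCAF1, a substrate receptor of a CRL4 ubiquitin ligase that has also been described as a kinase, and the series concerns inhibitors of that kinase activity. Inhibitor-treated cells were not analysed here. The labels do not say what the numbers 1 to 3 stand for (separate hairpins, cultures or repeats), so p-values reflect the spread among these particular libraries, which could be technical.

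Mitochondria keep their own ribosome, which translates the few proteins encoded by mitochondrial DNA, all of them subunits of the respiratory chain and ATP synthase. Its RNAs come from mitochondrial DNA, whereas all its proteins are encoded in the nucleus, made in the cytosol and imported. Some of these proteins descend from bacterial ribosomal proteins, and others exist only in mitochondria. The large subunit forms peptide bonds, and the small subunit reads the mRNA.

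The deposited values are scaled estimated reads, brought by the authors to an equal upper quartile in every library. Depth was estimated from the spacing of low values at 23029440 to 39633828 reads in VprBP sh libraries and 22981865 to 32293135 reads in Control sh libraries. The lowest member value in any library stood for 118 estimated reads, for MRPL54, and the highest for 11581. VprBP sh replicate 3 differed most from its group, so results that turn on it are given without it too. DCAF1 had values of 38.5, 41.1 and 40.2 in VprBP sh libraries, against 79.4, 78.5 and 78.7 in Control sh libraries, a log2 fold change of -0.97 ± 0.05 (SE) with an adjusted p of 3.56e-11. The epithelial genes KRT8, KRT18, EPCAM and CDH1 were all listed and abundant, and all were called between the groups. KRT8 had 619 in VprBP sh and 378 in Control sh, and KRT18 had 693 in VprBP sh and 455 in Control sh. EPCAM was higher, with 279 in VprBP sh and 251 in Control sh, and CDH1 lower, with 323 in VprBP sh and 342 in Control sh. Of the fixed immune, endothelial and fibroblast markers, 3 were listed. CD68 had 26.4 in VprBP sh and 26.3 in Control sh, COL1A1 had 24.7 in VprBP sh and 24.4 in Control sh, and PECAM1 had 23.3 in VprBP sh and 54.2 in Control sh. The part of the PECAM1 difference and of the epithelial gene differences in the results below was not tested.

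More member genes were higher than lower in VprBP sh cells, and the changes were small. In the fit over all listed genes, 32 of the 78 members were called higher in VprBP sh (adjusted p under 0.05), 8 were called lower and 38 were not called. In shares, 41.0% of members were called higher, 10.3% lower and 51.3% in either direction. Over all 12227 listed genes, 33% were called higher, 27.8% lower and 60.9% in either direction. The share of members called was thus below the background, the share called higher above it and the share called lower below it. The median log2 fold change was 0.09 over the members and 0.02 over all genes, and the median size of the change regardless of sign was 0.13 over the members and 0.21 over all genes. The values of the 2 groups did not overlap for 43 members, or 55.1%, against 64.8% of all genes. Only MRPL54 among the 78 members was both called and changed by at least 1.5-fold, which is 1.28% of members, against 12.3% of all genes. The values are relative to the other transcripts of a library, so less RNA per cell and fewer cells carrying the RNA cannot be told apart.

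The 32 higher members had ratios of group means between 1.08, for MRPL38, and 1.74, for MRPL54, with a median of 1.24, and 13 of them were under 1.2-fold. The 8 lower members were 1.07-fold lower, for MRPL30, to 1.35-fold lower, for MRPL34. Of the 40 called members, 39 had groups that did not overlap, the exception being MRPL38. MRPS14, MRPS21, MRPS27 and MRPL36 had groups that did not overlap and were not called. The median coefficient of variation of a member was 4.03% in VprBP sh and 3.3% in Control sh libraries.

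**Figure D1:**
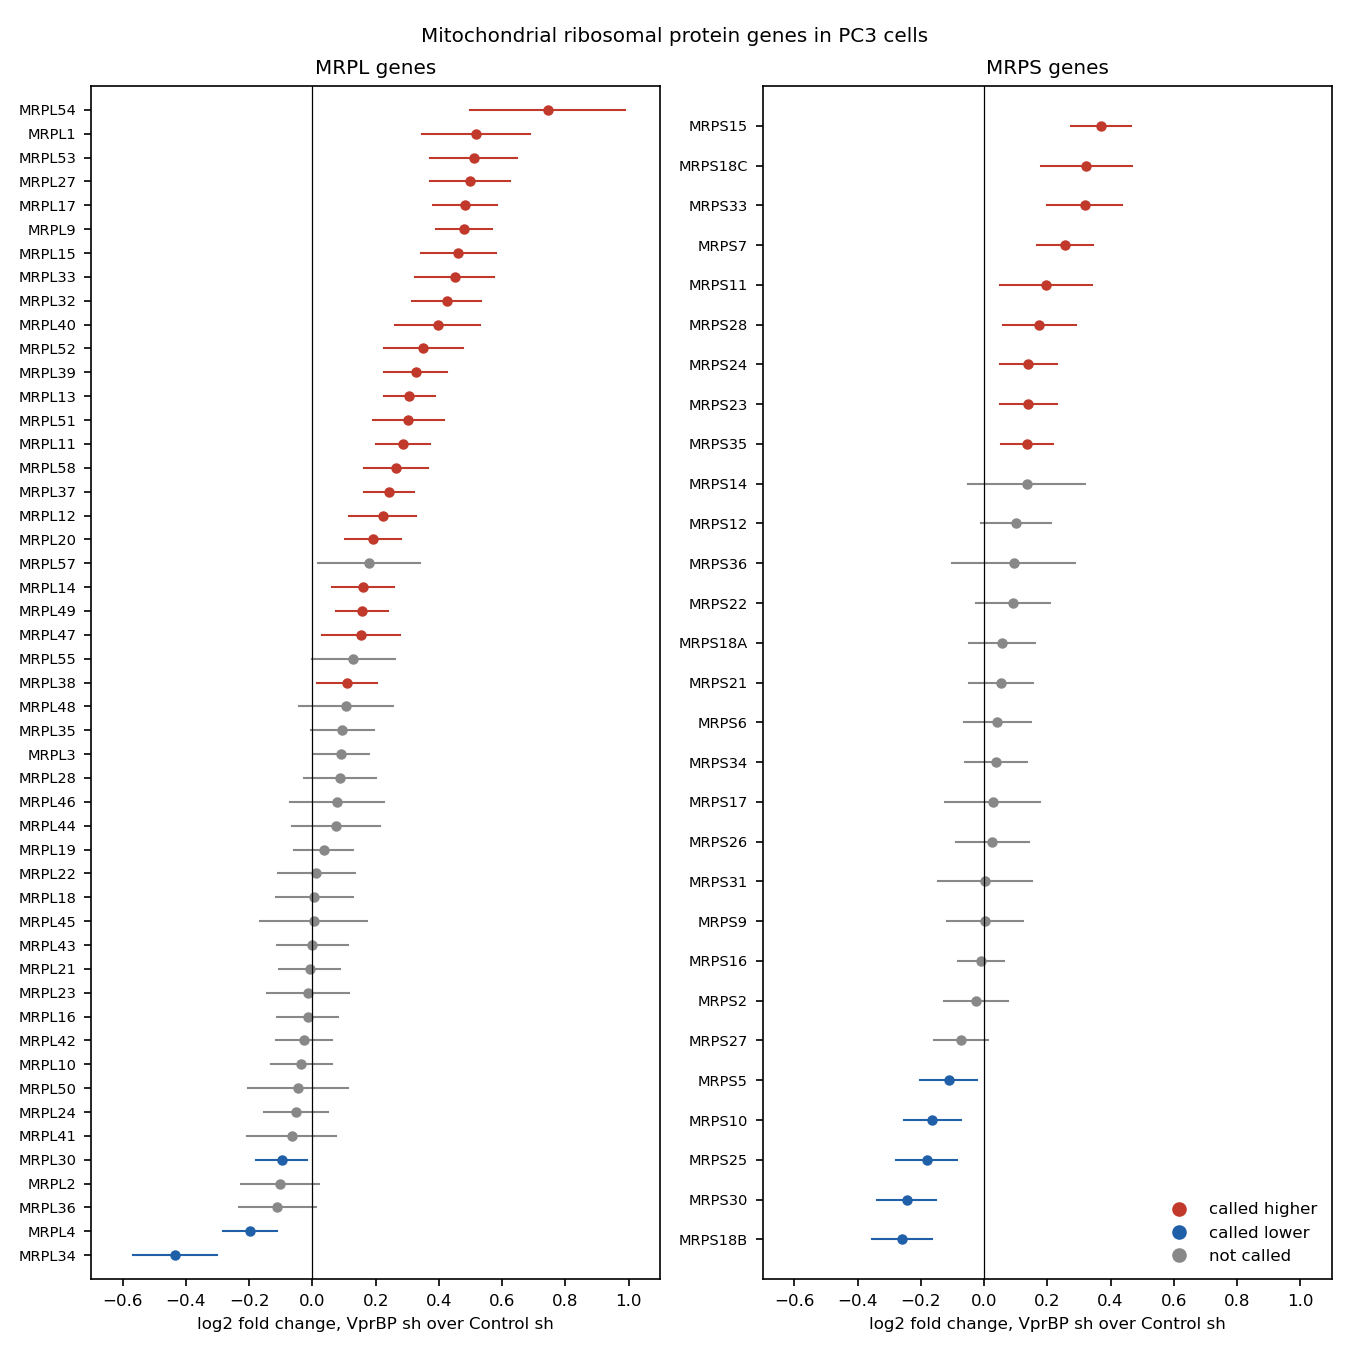
Log2 fold change, VprBP sh over Control sh, for each of the 49 MRPL genes (left) and 29 MRPS genes (right), with lines for the 95% confidence interval of the fit (n = 3 per group). Red points were called higher, blue points lower and grey points not called; the changes run from 0.74 for MRPL54 to -0.43 for MRPL34.

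Among proteins of the large subunit, MRPL54 had the highest ratio. MRPL54 is a large subunit protein with no bacterial counterpart. Its values were 10.1, 9.55 and 8.26 in VprBP sh libraries, against 5.16, 5.09 and 5.76 in Control sh libraries. All VprBP sh libraries lay above all Control sh libraries, with the lowest VprBP sh value in replicate 3. The log2 fold change was 0.74 ± 0.12 (SE), adjusted p = 3.82e-05. MRPL54 also had the lowest value of any member in both groups, although MRPS14 was the lowest when divided by transcript length. MRPL1 is the counterpart of bacterial L1, which forms the mobile stalk beside the site where spent tRNA leaves. MRPL1 had 19.2, 18.6 and 18.8 in VprBP sh libraries, against 12.2, 14.2 and 12.8 in Control sh libraries, a log2 fold change of 0.52 ± 0.08 (SE), adjusted p = 3.82e-05. The groups lay apart, and the VprBP sh values were closer together than the Control sh values.

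Counterparts of bacterial proteins made up most of the other strongly higher members. MRPL9 is the counterpart of bacterial L9, an elongated protein that reaches out from the large subunit. MRPL9 had 86.8, 85.3 and 85.8 in VprBP sh libraries, against 62.5, 60.8 and 61.3 in Control sh libraries. The log2 fold change was 0.48 ± 0.04 (SE), and its adjusted p of 6.26e-08 was the smallest of any member. MRPL17 corresponds to bacterial L17, at the exit of the peptide tunnel. MRPL17 had 62.8, 62.3 and 62.9 in VprBP sh libraries, against 46.3, 44.0 and 43.8 in Control sh libraries, a log2 fold change of 0.48 ± 0.05 (SE), adjusted p = 2.41e-07. Both genes were higher in every VprBP sh library, with gaps many times the spread within a group. MRPL27, the counterpart of L27, which in bacteria reaches toward the peptidyl transferase centre, had 48.8, 44.1 and 51.4 in VprBP sh libraries, against 33.6, 34.0 and 34.0 in Control sh libraries. The Control sh values of MRPL27 were nearly equal and the VprBP sh values were more spread, and the groups did not overlap (log2 fold change 0.50 ± 0.06 (SE), adjusted p = 2.25e-06).

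The promoters of MRPL9, MRPL17 and MRPL27 are shown because these genes had the smallest adjusted p-values among higher members with a single RefSeq start window, and because NRF1, ETS-family factors and YY1 are well-known regulators of nuclear genes for mitochondrial proteins. Each window runs from 250 bases before to 50 bases after the RefSeq start, on GRCh38.p14, 5′ to 3′ on the gene's strand. Capitals mark matches, on either strand, to the motifs GCGCANGCG (NRF1), CCGGAAG (ETS) or AANATGGCG (YY1). The windows lie at chr1:151763447-151763746 on the minus strand for MRPL9, chr11:6683291-6683590 on the minus strand for MRPL17 and chr17:50373135-50373434 on the minus strand for MRPL27.
MRPL9: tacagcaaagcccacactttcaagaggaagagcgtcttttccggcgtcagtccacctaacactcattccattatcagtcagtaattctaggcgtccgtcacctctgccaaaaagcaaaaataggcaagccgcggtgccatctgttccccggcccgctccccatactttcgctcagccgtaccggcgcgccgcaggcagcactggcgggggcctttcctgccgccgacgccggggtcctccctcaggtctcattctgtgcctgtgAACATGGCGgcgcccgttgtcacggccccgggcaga
MRPL17: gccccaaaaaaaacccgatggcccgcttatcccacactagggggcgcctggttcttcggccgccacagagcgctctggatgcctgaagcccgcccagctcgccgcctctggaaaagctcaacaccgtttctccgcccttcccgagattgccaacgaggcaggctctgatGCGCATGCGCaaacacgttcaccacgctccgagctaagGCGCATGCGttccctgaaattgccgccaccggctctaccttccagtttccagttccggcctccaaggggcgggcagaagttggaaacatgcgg
MRPL27: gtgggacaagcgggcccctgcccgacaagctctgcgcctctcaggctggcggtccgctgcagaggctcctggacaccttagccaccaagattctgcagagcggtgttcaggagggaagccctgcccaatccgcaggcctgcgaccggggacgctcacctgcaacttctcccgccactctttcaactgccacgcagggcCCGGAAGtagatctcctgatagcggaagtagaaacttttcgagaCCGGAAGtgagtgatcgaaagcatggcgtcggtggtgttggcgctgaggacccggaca
The MRPL9 window holds a YY1 match and the MRPL17 window 3 NRF1 matches, counting both strands, of which the first capital run holds an overlapping pair. The MRPL27 window holds ETS matches and no match to the other motifs.

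The remaining members among the 10 with the largest positive changes were all of the large subunit. MRPL53, a protein of the stalk region found only in mitochondria, had 33.6, 30.1 and 32.6 in VprBP sh libraries, against 21.7, 23.2 and 22.2 in Control sh libraries, a log2 fold change of 0.51 ± 0.06 (SE). MRPL15, MRPL33 and MRPL32 are counterparts of bacterial L15, L33 and L32. MRPL15 averaged 38.7 ± 0.69 in VprBP sh and 27.9 ± 0.54 in Control sh (SD, n = 3 each), with a log2 fold change of 0.46. MRPL33 averaged 34.6 ± 0.98 in VprBP sh and 25.2 ± 0.66 in Control sh (SD, n = 3 each), with a log2 fold change of 0.45. BABAM2, which overlaps MRPL33 on the same strand, was also called higher, with 21.0 in VprBP sh and 17.2 in Control sh. Reads of MRPL33 and BABAM2 may therefore not be separate. MRPL32, whose cleavage by a mitochondrial protease is a step of ribosome assembly in yeast, averaged 55.2 ± 1.7 in VprBP sh and 41.0 ± 1.4 in Control sh (SD, n = 3 each), with a log2 fold change of 0.42. MRPL40, a mitochondria-specific protein of the central protuberance, averaged 27.4 ± 0.27 in VprBP sh and 20.7 ± 0.82 in Control sh (SD, n = 3 each), with a log2 fold change of 0.40. None of these members had overlapping groups, and their adjusted p-values ran from 2.31e-06 for MRPL15 to 5.44e-05 for MRPL40.

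**Figure D2:**
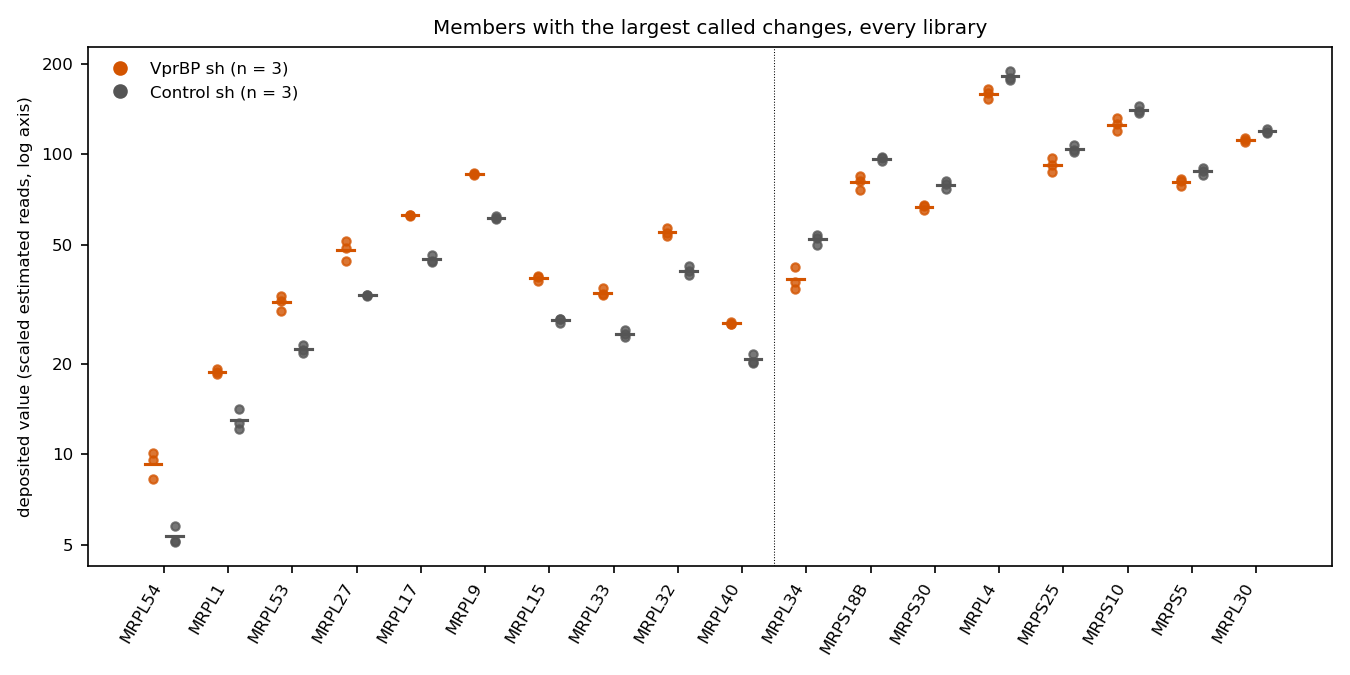
Deposited values (scaled estimated reads, log axis) of the 10 members with the largest called increases, left of the dotted line, and of the 8 members called lower, right of it. Each dot is a library, VprBP sh in orange left of Control sh in grey, and bars are group means; the dots of MRPL9 lie near 86.0 in VprBP sh and 61.6 in Control sh.

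Of the 23 higher MRPL genes, the 13 not described above had smaller changes, from 0.35 for MRPL52 to 0.11 for MRPL38 on the log2 scale. They included MRPL11 and MRPL12, counterparts of the bacterial L11 and L12 proteins of the stalk that contacts translation factors, at 0.29 and 0.22. MRPL58, a peptidyl-tRNA hydrolase that is also a structural protein of the large subunit, was higher by 0.26. MRPL37 averaged 163 ± 3.2 in VprBP sh and 137 ± 3.3 in Control sh (SD, n = 3 each). This was the highest VprBP sh value of a large subunit gene. Divided by transcript length, MRPL20 was above it in VprBP sh, at 160 per kb against 110 per kb. MRPL13, MRPL14, MRPL20, MRPL39, MRPL47, MRPL49 and MRPL51 were the other higher MRPL genes. 

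The 3 lower MRPL genes were MRPL34, MRPL4 and MRPL30. MRPL34 corresponds to L34, a very small protein of the bacterial large subunit. MRPL34 had 42.3, 37.5 and 35.6 in VprBP sh libraries, against 52.6, 49.9 and 53.7 in Control sh libraries, a log2 fold change of -0.43 ± 0.06 (SE), adjusted p = 1.67e-05. Every VprBP sh value lay below every Control sh value. ABHD8, which overlaps MRPL34 on the opposite strand, was lower too, with 41.3 ± 3.1 in VprBP sh and 52.9 ± 1.8 in Control sh (SD, n = 3 each), and no source used here states whether counting used strand, so reads of MRPL34 and ABHD8 may not be separate. MRPL4, the counterpart of L4, a protein that lines the peptide tunnel in bacteria, averaged 159 ± 6.0 in VprBP sh and 182 ± 6.8 in Control sh (SD, n = 3 each), with a log2 fold change of -0.20 and an adjusted p of 0.000487. MRPL30 averaged 112 ± 1.6 in VprBP sh and 119 ± 1.9 in Control sh (SD, n = 3 each), with a log2 fold change of -0.10 and an adjusted p of 0.0346.

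The MRPS genes split more evenly, with 9 higher (31.0%), 5 lower (17.2%) and 15 not called. Over all listed genes 33% were higher and 27.8% lower, so the higher share of MRPS genes was near the background. MRPS15, the counterpart of S15, which binds the small ribosomal RNA in bacteria, rose most. MRPS15 had 78.4, 75.1 and 74.0 in VprBP sh libraries, against 59.6, 58.6 and 57.7 in Control sh libraries, a log2 fold change of 0.37 ± 0.04 (SE), adjusted p = 2.65e-06. The groups of MRPS15 were far apart. MRPS18C, MRPS33 and MRPS7 followed, with log2 fold changes of 0.32, 0.32 and 0.25. MRPS7 corresponds to S7 of the bacterial small subunit head, and MRPS33 is found only in mitochondria. MRPS11, MRPS28, MRPS24, MRPS23 and MRPS35 were higher by 0.20 to 0.14.

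Among the 5 lower MRPS genes, MRPS18B had 84.6, 76.3 and 81.7 in VprBP sh libraries, against 95.2, 97.2 and 98.0 in Control sh libraries, a log2 fold change of -0.26 ± 0.05 (SE), adjusted p = 0.000118. MRPS30 had 67.8, 67.2 and 65.4 in VprBP sh libraries, against 79.8, 76.6 and 81.2 in Control sh libraries, a log2 fold change of -0.24 ± 0.04 (SE), adjusted p = 0.000158. In both genes all VprBP sh values were below all Control sh values. Despite its symbol, MRPS30 is a protein of the large subunit in structures of the mammalian mitochondrial ribosome. MRPS25, a mitochondria-specific protein, averaged 92.0 ± 4.9 in VprBP sh and 104 ± 2.6 in Control sh (SD, n = 3 each), a log2 fold change of -0.18. NR2C2 overlaps MRPS25 on the opposite strand and was also called lower, with 64.7 in VprBP sh and 72.7 in Control sh. MRPS10 and MRPS5, counterparts of S10 and S5, had log2 fold changes of -0.16 and -0.11, with adjusted p-values of 0.00325 and 0.0329. The start windows of MRPS18B, at chr6:30617590-30617889 on the plus strand, and MRPS30, at chr5:44808697-44808996 on the plus strand, are shown to set lower members beside the higher ones above, with the same marking.
MRPS18B: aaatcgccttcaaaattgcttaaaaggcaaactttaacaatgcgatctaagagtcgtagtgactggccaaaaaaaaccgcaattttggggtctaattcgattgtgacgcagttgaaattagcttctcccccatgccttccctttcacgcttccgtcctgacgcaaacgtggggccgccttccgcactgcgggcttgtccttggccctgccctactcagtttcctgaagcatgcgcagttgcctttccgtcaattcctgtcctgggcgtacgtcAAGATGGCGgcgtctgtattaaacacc
MRPS30: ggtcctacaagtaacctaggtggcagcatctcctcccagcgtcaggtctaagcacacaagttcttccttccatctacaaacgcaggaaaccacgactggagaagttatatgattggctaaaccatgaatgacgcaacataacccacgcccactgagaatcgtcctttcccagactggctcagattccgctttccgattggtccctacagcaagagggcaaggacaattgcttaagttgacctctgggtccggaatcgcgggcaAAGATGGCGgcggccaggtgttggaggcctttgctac
Both windows hold a YY1 match just after the start, as the MRPL9 window of a higher gene does.

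By symbol, a larger share of MRPL than of MRPS genes was called higher. Of the MRPL genes 46.9% were called higher and 6.12% lower, and of the MRPS genes 31.0% and 17.2%. Over all listed genes, 33% were called higher and 27.8% lower. The MRPS share called higher was thus near that of all genes, and the shares called lower were below it for MRPL and MRPS genes. The median log2 fold change was 0.11 over the MRPL genes and 0.05 over the MRPS genes. With median-of-ratios size factors the medians were 0.0847 over MRPL genes and 0.0287 over MRPS genes. Without VprBP sh replicate 3 they were 0.1493 over MRPL genes and 0.0852 over MRPS genes. With MRPS30 and MRPS18A moved to the large subunit, as structures place them, and MRPS36 left out, the 51 large subunit genes had 23 higher and 4 lower calls, and the 26 small subunit genes had 9 higher and 4 lower. The medians were then 0.11 and 0.05. The summed value of the MRPL genes divided by that of the MRPS genes was 1.48, 1.48 and 1.47 in VprBP sh libraries, against 1.39, 1.37 and 1.38 in Control sh libraries, without overlap. All members together held 0.555%, 0.543% and 0.540% of the summed values of VprBP sh libraries, against 0.522%, 0.521% and 0.522% of Control sh libraries. These ratios and shares weight members with high values most, and no test was made of them because the members were chosen with results known.

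**Figure D3:**
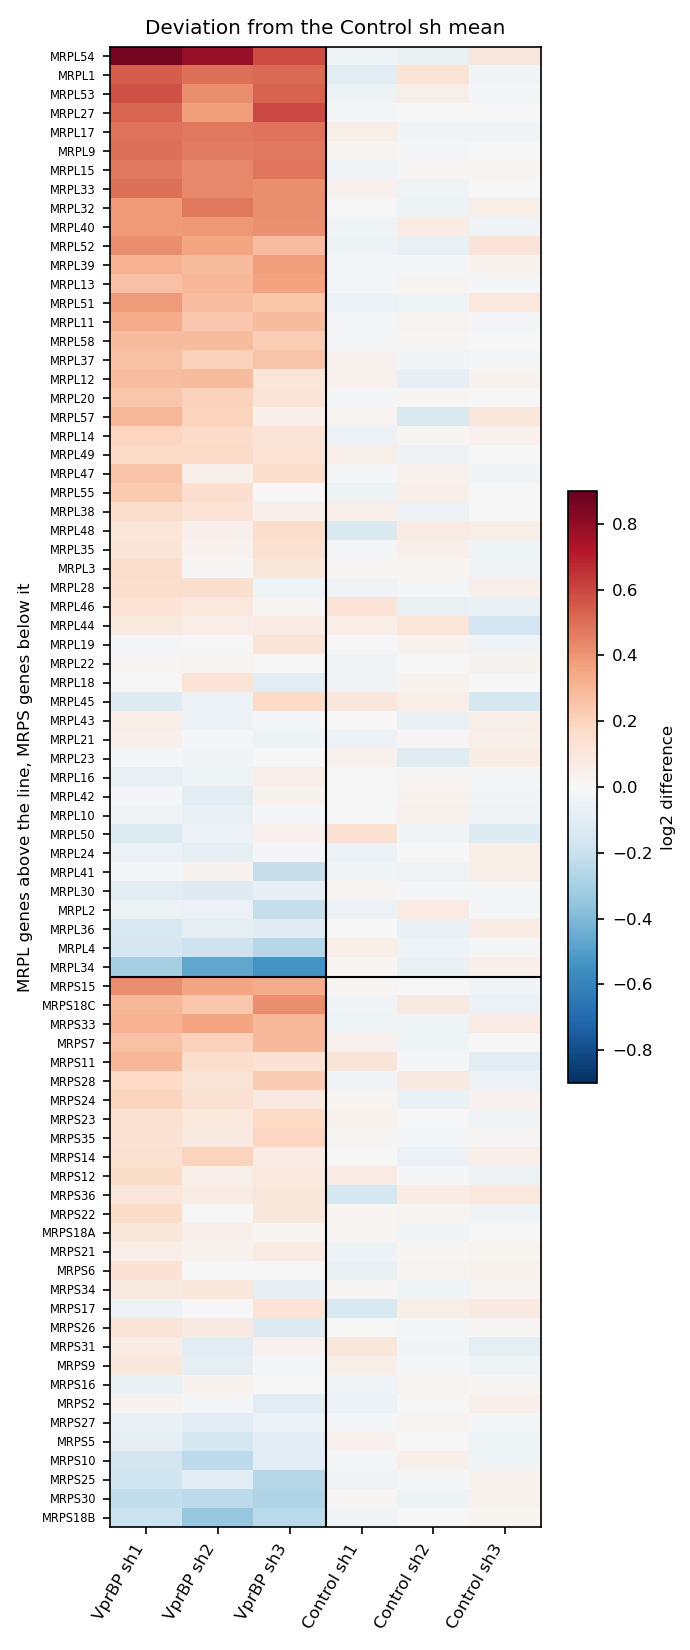
Log2 difference of each member in each library from the mean of the Control sh libraries, with MRPL genes above the line and MRPS genes below it, each sorted by fold change. The 3 VprBP sh columns left of the line are mostly red in the upper rows of each block, and the median difference over all members was 0.13, 0.07 and 0.09 in VprBP sh libraries and between -0.01 and 0.00 in Control sh libraries.

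Higher members were found both among proteins with bacterial relatives and among those listed as mitochondria-specific. Of 30 large subunit proteins with bacterial relatives, 13 were higher and 3 lower, with a median log2 fold change of 0.09. Of 21 large subunit proteins listed as mitochondria-specific, 10 were higher and 1 was lower, with a median of 0.11. The mitochondria-specific lists of the subunits include MRPL58, MRPS18A and MRPS18B. MRPS18A and MRPS18B are paralogs of MRPS18C, the counterpart of bacterial S18, so that label does not settle descent. In the small subunit, 6 of 16 proteins with bacterial relatives were higher and 2 lower, and 3 of 10 mitochondria-specific proteins were higher and 2 lower. By place in the large subunit, 3 of 4 genes listed for the stalk that contacts translation factors were higher (MRPL11, MRPL12 and MRPL53). MRPL10 of that list was not called, at 61.5 ± 1.3 in VprBP sh and 63.0 ± 1.5 in Control sh (SD, n = 3 each). The list leaves out MRPL1, which belongs to the other stalk. In the central protuberance, 5 of 9 were higher (MRPL27, MRPL38, MRPL40, MRPL52 and MRPL58) and none was lower. At the tunnel exit, 2 of 6 were higher (MRPL17 and MRPL47) and the median log2 fold change was 0.01. Over all listed genes, 33% were called higher and 27.8% lower. These lists of members hold few genes, and differences between them were not tested.

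The MRPS18 paralogs differed in direction. MRPS18C, the counterpart of S18 in the small subunit, averaged 28.3 ± 1.7 in VprBP sh and 22.5 ± 1.1 in Control sh (SD, n = 3 each), and was called higher with an adjusted p of 0.000641. MRPS18A, a large subunit protein in structures, averaged 49.3 ± 1.5 in VprBP sh and 47.4 ± 0.80 in Control sh (SD, n = 3 each), and was not called, with an adjusted p of 0.336. MRPS18B, which sits in the small subunit away from the place of bacterial S18, was the one called lower. The log2 ratio of MRPS18C to MRPS18B was -1.50 ± 0.08 in VprBP sh and -2.08 ± 0.07 in Control sh (SD, n = 3 each), a difference of 0.58. The differences were 0.27 for MRPS18C to MRPS18A and 0.32 for MRPS18A to MRPS18B. A two-sided exact permutation test gave p = 0.1 for each of the 3 ratios, 0.1 after Benjamini-Hochberg adjustment. That is the smallest value that 3 against 3 libraries allow, and it lies above the threshold used for calls. The test therefore cannot decide whether the ratios differ. The groups of MRPS18C and MRPS18B already lay apart in opposite directions, so the separation of their ratio was fixed beforehand. These ratios were also chosen with earlier results of these data known. MRPS36, a subunit of the 2-oxoglutarate dehydrogenase complex that carries a ribosomal symbol, averaged 12.4 ± 0.22 in VprBP sh and 11.7 ± 1.1 in Control sh (SD, n = 3 each), with an adjusted p of 0.396.

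The 38 members not called had log2 fold changes between -0.11 and 0.18, and their 95% confidence intervals together spanned -0.23, for MRPL36, to 0.34, for MRPL57. These intervals are not adjusted for the number of genes tested. Those of MRPL57 (0.02 to 0.34) and MRPL3 (0.0008 to 0.18) left out no change, but neither gene was called after adjustment. For the other genes not called, a change inside the interval could not be told from no change. The MRPL genes among the 38 were MRPL2, MRPL3, MRPL10, MRPL16, MRPL18, MRPL19, MRPL21, MRPL22, MRPL23, MRPL24, MRPL28, MRPL35, MRPL36, MRPL41, MRPL42, MRPL43, MRPL44, MRPL45, MRPL46, MRPL48, MRPL50, MRPL55 and MRPL57. The MRPS genes were MRPS2, MRPS6, MRPS9, MRPS12, MRPS14, MRPS16, MRPS17, MRPS18A, MRPS21, MRPS22, MRPS26, MRPS27, MRPS31, MRPS34 and MRPS36. MRPS16, the counterpart of S16 and the member with the highest value, had 295, 314 and 309 in VprBP sh libraries, against 300.4, 313 and 309 in Control sh libraries, and the groups overlapped throughout. Divided by the length of the principal transcript, the median level over members was 48.8 per kb in VprBP sh and 45.8 per kb in Control sh. The highest level per length was that of MRPS24, the counterpart of S3, at 186 per kb in VprBP sh and 169 per kb in Control sh. MRPS14 had the lowest, at 5.86 per kb in VprBP sh and 5.31 per kb in Control sh.

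**Figure D4:**
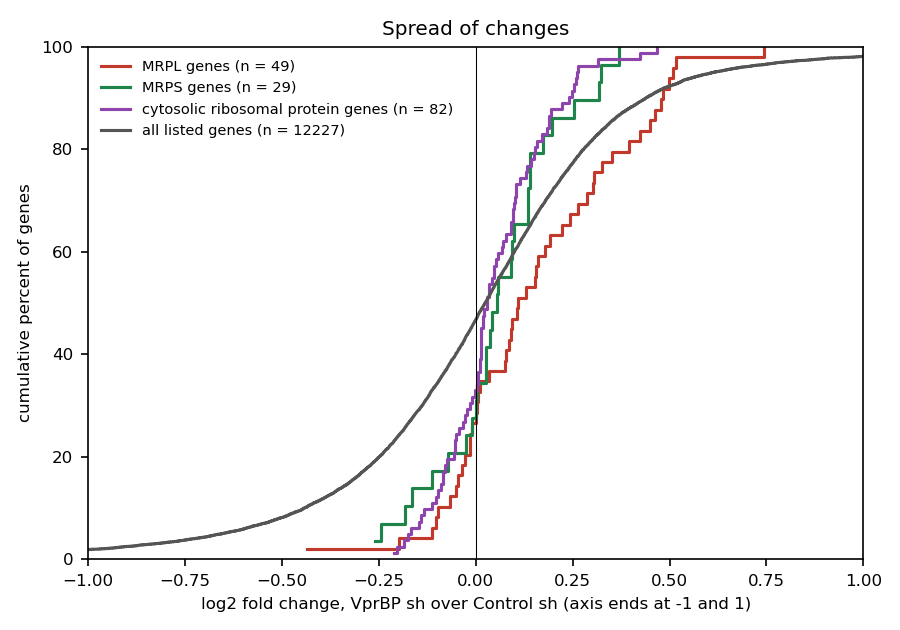
Cumulative percent of genes (vertical axis) at or below each log2 fold change, VprBP sh over Control sh (horizontal axis, cut at -1 and 1), for MRPL, MRPS, cytosolic ribosomal protein and all listed genes. The line of all genes is the widest, and the MRPL line lies right of the MRPS line over most of its upper range, with medians of 0.11 and 0.05.

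Some calls rested on few libraries. Of the 40 called members, 33 (27 higher and 6 lower) kept their call under each of 13 other settings, none changed sign, and 7 lost it under at least 1. MRPS28 lost it without Control sh replicate 3 (adjusted p = 0.0523). MRPS24 lost it without Control sh replicate 2 or without VprBP sh replicate 1, and MRPS11 without Control sh replicate 2, Control sh replicate 3 or VprBP sh replicate 1, with adjusted p-values up to 0.0585 for MRPS24 and 0.121 for MRPS11. MRPL47 lost it when values were rescaled and without Control sh replicate 1, Control sh replicate 3 or VprBP sh replicate 1 (adjusted p up to 0.17). MRPL38 lost it when values were rescaled, with limma-voom, and without Control sh replicate 2 or 3 or VprBP sh replicate 1 or 2 (adjusted p up to 0.162). The lower call of MRPL30 was lost without Control sh replicate 1 or 3 or VprBP sh replicate 1 or 2 (adjusted p up to 0.131), and that of MRPS5 without Control sh replicate 1 or 2 or VprBP sh replicate 2 (adjusted p up to 0.138). Of the 38 members not called, 8 were called under at least 1 other setting. MRPL57, MRPL55, MRPL28 and MRPS34 were called higher without VprBP sh replicate 3, and MRPL35 and MRPL3 without VprBP sh replicate 2. MRPL57 was also called without Control sh replicate 3 and at a mean value of at least 5. MRPS27 and MRPL36 were called lower with median-of-ratios size factors. The count of higher members ranged from 28 to 36 with a library left out, and without VprBP sh replicate 3 it was 36, with 8 lower. Named pseudogenes are annotated for 34 members, up to 8 for MRPS21, so reads of such genes may be shared with their copies. Of these 34 members, 14 were called higher and 4 lower. Over all 78 members 41.0% were called higher and 10.3% lower, and over all listed genes 33% and 27.8%.

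Other proteins of the mitochondrial ribosome, which carry different symbols, moved in both directions. GADD45GIP1 and DAP3 were higher in VprBP sh by 0.34 and 0.20 on the log2 scale, and so was AURKAIP1 by 0.22, while PTCD3, which binds RNA in the small subunit, was lower with a log2 fold change of -0.28. CHCHD1 was not called, at 99.9 ± 6.0 in VprBP sh and 102 ± 1.7 in Control sh (SD, n = 3 each). The median of these 5 genes was 0.20. Of 28 factors that assemble or modify the mitochondrial ribosome, 13 were higher and 4 lower, with a median of 0.09. These are shares of 46.4% and 14.3%, against 33% and 27.8% over all listed genes. The RNA helicase gene DDX28 had 15.2 ± 1.5 in VprBP sh and 9.53 ± 1.3 in Control sh (SD, n = 3 each), and MTERF4 and RBFA were higher by 0.49 and 0.33. The GTPase gene NOA1 had 51.6 ± 0.80 in VprBP sh and 67.9 ± 2.3 in Control sh (SD, n = 3 each), and the rRNA methyltransferase genes METTL15 and TFB1M had log2 fold changes of -0.35 and -0.24. Without VprBP sh replicate 3, 2 of the assembly factors were called lower.

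Of 17 genes for factors that run mitochondrial translation, 2 were higher and 3 lower, or 11.8% and 17.6%. The shares over all listed genes were 33% and 27.8%. The median log2 fold change of the 17 genes was -0.10, and -0.0674 without VprBP sh replicate 1. GFM1, an elongation factor, averaged 64.9 ± 1.6 in VprBP sh and 48.0 ± 2.5 in Control sh (SD, n = 3 each), and the translational activator gene TACO1 was higher by 0.15. OXA1L, which inserts new proteins into the inner membrane, averaged 116 ± 2.4 in VprBP sh and 140 ± 3.7 in Control sh (SD, n = 3 each). The deformylase gene PDF and the release factor gene MTRF1 had log2 fold changes of -0.28 and -0.26. When values were rescaled, 1 was higher and 6 were lower. The lower count was 7 with limma-voom on estimated reads, and the higher count was 1 without Control sh replicate 1, Control sh replicate 2, VprBP sh replicate 1 or VprBP sh replicate 2.

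The transcripts that this ribosome translates were mostly lower. Of the 13 mRNAs encoded in mitochondrial DNA, 11 were called lower in VprBP sh, MT-ND1 was called higher and MT-CO2 was not called. Their median log2 fold change was -0.32, and 84.6% of them were called lower, against 27.8% of all listed genes. Without VprBP sh replicate 3, 12 of the 13 were called lower and 1 higher. MT-ND5 had 1812, 1910.2 and 1956 in VprBP sh libraries, against 2582, 2705 and 2709 in Control sh libraries, a log2 fold change of -0.49 ± 0.03 (SE), adjusted p = 2.54e-09. MT-ND6, which lies on the other strand of mitochondrial DNA, averaged 407 ± 13 in VprBP sh and 582 ± 7.6 in Control sh (SD, n = 3 each). MT-ATP8 had 52.0, 60.1 and 29.3 in VprBP sh libraries, against 71.9, 71.1 and 76.5 in Control sh libraries, with the lowest value in VprBP sh replicate 3. MT-ATP8 overlaps MT-ATP6, so its reads may not be separate. MT-ND1 averaged 2603 ± 94 in VprBP sh and 2318 ± 62 in Control sh (SD, n = 3 each). Of the 2 ribosomal RNAs, MT-RNR2 of the large subunit was called lower, at 3196 ± 159 in VprBP sh and 3456 ± 58 in Control sh, and MT-RNR1 of the small subunit was not called, at 587 ± 53 in VprBP sh and 631 ± 57 in Control sh (SD, n = 3 each). Without Control sh replicate 3 or without VprBP sh replicate 3, both ribosomal RNAs were called lower. The libraries were made with an mRNA-seq kit, and how fully it captured these ribosomal RNAs was not tested.

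The 82 cytosolic ribosomal protein genes gave a comparison with the other ribosome of the cell. Of these, 28 were higher and 10 lower, with a median log2 fold change of 0.03. The shares were 34.1% and 12.2%, against 33% and 27.8% over all listed genes. Under either rescaling of the libraries 21 were higher and 14 lower, and the median was 0.0064 with equal sums and 0.0038 with median-of-ratios size factors. The median was 0.0011 without VprBP sh replicate 1, 0.0455 without VprBP sh replicate 2, 0.0174 without Control sh replicate 1 and 0.0462 without Control sh replicate 3. RPS27L, RPS26 and RPS27 had the largest positive values, at 0.47, 0.42 and 0.32, and RPL13A, RPS29 and RPL3 the largest negative ones, at -0.21, -0.20 and -0.18. Many cytosolic ribosomal protein genes have processed pseudogenes, so their values are uncertain. Without Control sh replicate 3, 6 of them were called lower. None was called with a change of at least 1.5-fold.

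**Figure D5:**
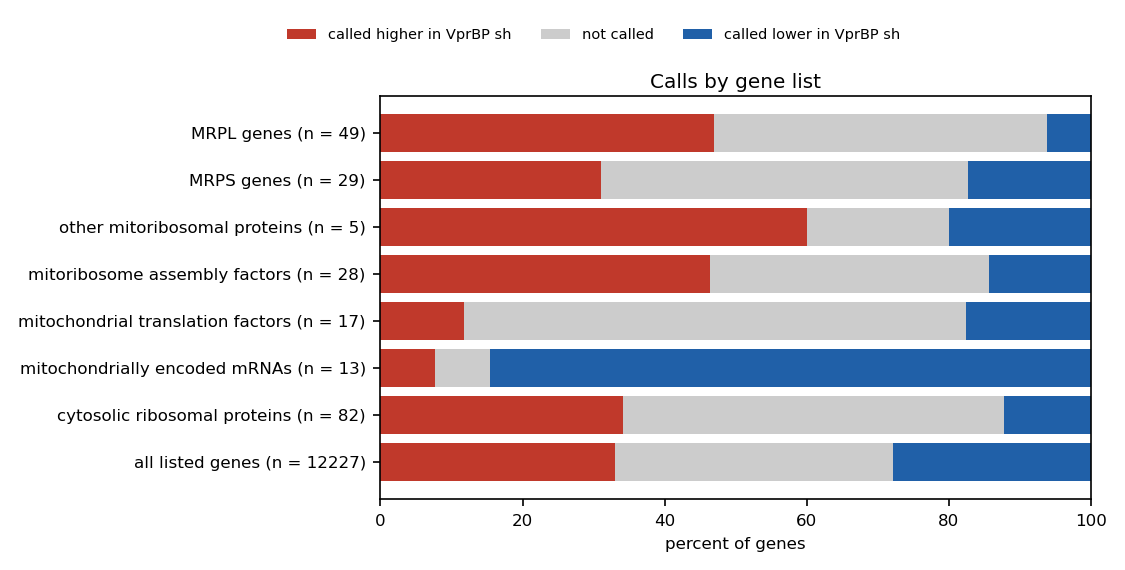
Percent of genes of each list called higher in VprBP sh (red, left), not called (grey) and called lower (blue, right), by limma at an adjusted p under 0.05. The MRPL bar has 46.9% higher and 6.12% lower, the bar of mitochondrially encoded mRNAs has 84.6% lower, and the bar of all listed genes has 33% higher and 27.8% lower.

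Some members start back to back with another gene, and the partners moved in either direction. For 24 members, a listed gene on the opposite strand started within 1000 bases, giving 25 pairs. MRPS11 and MRPL46 are partners of each other and are counted from both sides. Over the 25 pairs, the partner was higher in 9, lower in 7 and not called in 9. Over all listed genes, 33% were higher and 27.8% lower. In the 14 pairs with a higher member, the partner was higher in 3, lower in 4 and not called in 7. FAU, a gene of the cytosolic small subunit that starts 6 bases from MRPL49, was higher by 0.26, against 0.16 for MRPL49. EME1 starts 13 bases from MRPL27 and was not called, at 19.9 ± 0.65 in VprBP sh and 19.1 ± 1.6 in Control sh (SD, n = 3 each). PSMA2, a proteasome subunit gene 191 bases from MRPL32, was higher by 0.23, against 0.42 for MRPL32. NDUFB5, a complex I subunit gene 41 bases from MRPL47, had a log2 fold change of -0.18, against 0.15 for MRPL47. In both pairs with a lower member (MRPL30 with MITD1 and MRPS18B with PPP1R10) the partner was called higher. A listed gene overlapped 21 members on the opposite strand, 14 of them called. Of all members 51.3% were called, and of all listed genes 60.9%. On the same strand, a listed gene overlapped 5 members, MRPL33 among them.

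The share of members with an ETS or YY1 motif near the start was above the share over all listed genes. A start window was found in RefSeq for 69 members, and a member was counted when any of its windows held a match. NRF1 matches were found for 20.3% of members, ETS matches for 43.5% and YY1 matches for 26.1%. Among the 9422 genes of the deposited table with a window, the shares were 17.8%, 23.7% and 8.57%, and among all 27305 genes with a window they were 9.02%, 12.2% and 3.85%. Among the 29 higher members with a window, 20.7% had an NRF1, 48.3% an ETS and 24.1% a YY1 match, and among the 32 members not called the shares were 18.8%, 43.8% and 25%. Of the 8 lower members, 25% had an NRF1, 25% an ETS and 37.5% a YY1 match. A match is a run of letters in these windows, and these shares were not tested.

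Member genes lie on many chromosomes, and those with at least 5 members were counted. On chromosome 17, 6 of 8 members were higher and none lower, against 34.4% higher and 27% lower among all listed genes of that chromosome. On chromosome 1, 4 of 8 were higher and none lower, against 38.2% higher and 25% lower among its listed genes. On chromosome 2, 2 of 8 were higher (MRPL53 and MRPL33) and 2 lower (MRPL30 and MRPS5), against 37.9% and 23.8%. On chromosome 11, 3 of 7 were higher and none lower, against 35.3% and 26.2%. On chromosome 6, 1 of 6 was higher and 2 were lower (MRPS18B and MRPS10), against 27.6% and 32.6%. On chromosome 5, none of 5 was higher and MRPS30 was lower, against 31.5% and 26.7%. In coordinates of the deposited table on hg38, MRPL54 spans chromosome 19 from 3762682 to 3768575, MRPL9 chromosome 1 from 151759647 to 151763496, MRPL17 chromosome 11 from 6680385 to 6683340 and MRPL27 chromosome 17 from 50367857 to 50373207. MRPL34 spans chromosome 19 from 17292609 to 17306843, and MRPS30 chromosome 5 from 44808947 to 44820428.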

How the data were processed

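The values deposited by the authors are a scaled signal: gene-level estimated reads, in which low values are spaced by a fixed step in each library, taken as 1 read. Between 55.5% and 65.0% of values per library were whole multiples of the step (tolerance 0.02 reads), so they were not treated as counts. Partek and hg38 are named in the submitters' processing notes, and per the labels' protocols libraries were made with a SMARTer mRNA-seq kit from total RNA. Not given in the sources used here were the aligner, quantifier, annotation, strand setting and scaling method. Table ends were reduced by 1 after a check against GENCODE 29. Every listed gene had 150 or more estimated reads in its best library.

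The test was limma 3.58.1 (R 4.3.3), two-sided, fitted to log2(value + 0.5) of all 12227 genes with a variance trend and no covariate. P-values were adjusted by Benjamini-Hochberg over all genes, and a gene was called at 0.05. The scripts were tested on simulated data. Folds are ratios of group means. Log2 fold changes include that pseudocount and so understate the changes of low genes. The members, gene lists and tests were chosen with earlier results of these data known. Named genes were the 10 members with the largest called changes in each direction (8 were lower), the MRPS18 paralogs, MRPS30 and MRPS36. Also named were the members with the highest and lowest values, up to 3 called genes per direction of each companion list, and neighbours. Others were added after their values were seen to fill the group accounts. Promoter windows are from RefSeq. Alternatives were other scalings, pseudocounts of 0.1 and 1, a mean value of at least 5, subunits assigned by structure, limma-voom, leaving out each library and a replicate block. A few marker genes are not reported here.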

Additional observations from a re-analysis of the deposited data

How the results depend on the processing

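Direction held for every called member under all 13 settings tried, and 592 of 643 values stayed close to the reported one or on its side of the threshold. With values rescaled to an equal sum per library the median log2 fold change was 0.0699 over members, 0.0873 over MRPL genes, 0.0682 over assembly factors and -0.1274 over translation factors, with 1 translation factor higher and 6 lower. With median-of-ratios size factors these medians were 0.0673, 0.0847, 0.0657 and -0.1300, that of MRPS genes was 0.0287, and again 1 translation factor was higher and 6 were lower. The median of all genes was 0.0239 as deposited, 0.0015 and -0.0010 under these scalings, so the members' medians moved with it. With limma-voom on estimated reads the medians were 0.0697 for assembly factors and -0.1272 for translation factors, 7 translation factors were lower and both ribosomal RNAs (2) were lower. Members called were 31 higher and 9 lower under voom. With a library left out in turn, the median ranged from 0.067 to 0.1048 over members, 0.0863 to 0.1493 over MRPL genes, 0.043 to 0.0852 over MRPS genes, 0.075 to 0.1182 over assembly factors, -0.1357 to -0.0674 over translation factors and -0.4158 to -0.2368 over mitochondrially encoded mRNAs. Counts ranged from 1 to 2 for higher translation factors, 2 to 4 for lower assembly factors, 1 to 2 for lower ribosomal RNAs and 6 to 11 for lower cytosolic genes. The cause was not tested. With the replicate number as a block, 31 members were higher and 6 lower, and 7042 genes were called against 7441. Deviations of same-numbered libraries correlated at 0.02, -0.16 and -0.17, and those of differently numbered libraries at -0.08 to 0.18. With 3 libraries per group, these values cannot tell whether a number stands for a shared hairpin, culture or batch. The block ended the calls of MRPL38, MRPL30 and MRPS5 among named members. The read depth limits MRPL54 most, at 118 estimated reads in its lowest library, and 3 libraries per group limit every interval given.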
